A study of Mus musculus with 2 samples.

Results

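Resting T cells are held in a small, slowly metabolising state by a set of quiescence genes, and 9 of these were followed here in single OTII CD4 T cells from mouse spleen. They were given as a list of names: Txnip, Tsc22d3, Btg1, Btg2, Tob1, Sesn1, Sesn3, Pik3ip1 and Cdkn1b, which are 9 of the 35976 genes in the count tables. The list was selected on measured values, with the levels per plate and pool, the shares of positive cells and the overlap with Cd44-positive cells in view, so those values are descriptions and carry no test.

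In a resting T cell, transcription factors such as FOXO1 and KLF2 keep quiescence genes on, and signals through the antigen receptor, CD28 and PI3K shut many of them off as the cell takes up glucose, grows and enters the cell cycle. The products act as brakes at separate points: on glucose uptake and thioredoxin (Txnip), on transcription (Tsc22d3), on mRNA stability and proliferation (Btg1, Btg2 and Tob1), on mTORC1 and PI3K (Sesn1, Sesn3 and Pik3ip1) and on cyclin-dependent kinases (Cdkn1b). Cd44, an adhesion receptor that rises on antigen-experienced T cells, served as the marker set against them.

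The deleted-host pool came from 3 hosts of genotype IL13Ra1f/f, CD11cCre/+, in which Cre under the CD11c promoter, active mainly in dendritic cells, deletes the receptor chain gene Il13ra1. The control pool came from 2 C57BL/6 hosts. Both pools were taken on day 7 after CAS, a term the labels do not explain, and a second priming, and cells negative for propidium iodide and positive for V beta 5.1/5.2 and CD4 were sorted one per well for SmartSeq2. No congenic marker was part of the gate, so host CD4 cells bearing the same V beta chains could be among them, and the deletion lies in host cells and not in transferred OTII cells. Each group is 1 pooled sample of 368 cell wells on 4 plates, so there is no test between groups. Plates are technical splits of a pool, and no plate held both pools, so plate and pool cannot be told apart.

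The deleted-host pool held 542650671 reads in genes, with 125197307 to 143937319 per plate, and the control-host pool held 573105030, with 137968663 to 148025125 per plate. Il13ra1 itself reached 10 reads per 1000000 reads in genes (10 CPM) in 1 cell of each pool and had 0.197 CPM in deleted hosts and 2.35 CPM in control hosts, which says nothing about the labels because the deleted cells were not sorted. The 9 CD4 T cell markers summed to 8968 CPM in deleted hosts and 8668 CPM in control hosts. Of the CD8, B cell, myeloid and natural killer marker lists, only Cd8b1, Cd74, Cst3 and Nkg7 reached 20 CPM in either pool, and the list sums were 9.47, 37.0, 98.9 and 56.3 CPM in deleted hosts and 26.5, 31.4, 103 and 65.2 CPM in control hosts. The 15 immediate early and heat shock genes, a list that also tracks how cells were handled, summed to 11124 CPM in deleted hosts (10488 to 11481 by plate) and 7692 CPM in control hosts (6921 to 8637), without overlap of the plates. The list did not move as one. Of its 11 measured genes 5 were higher without plate overlap, Junb being the most abundant (2890 CPM in deleted hosts, 1285 CPM in control hosts), and Egr1 was lower without plate overlap (116 CPM in deleted hosts, 296 CPM in control hosts). Zfp36 had 229 CPM in deleted hosts and 312 CPM in control hosts, with overlapping plates. Junb, Egr1 and Zfp36 were picked with their values known, and the part of the list in the values below was not tested.

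Levels between members were set side by side per kilobase of annotated exon. Btg1 was highest, at 489 CPM per kb in deleted hosts and 424 in control hosts, followed by Btg2 at 218 and 156 CPM per kb. Tsc22d3 (103 and 54.2 CPM per kb) and Txnip (98.4 and 90.8) came next in deleted and control hosts, and their plate ranges overlapped in both pools, so their order is not resolved. Pik3ip1 had 49.1 and 43.5 CPM per kb, Sesn1 36.6 and 37.0, Cdkn1b 17.5 and 11.7, Tob1 9.22 and 10.4 and Sesn3 1.18 and 1.67 in deleted and control hosts. In control hosts the plates overlapped for Tsc22d3 and Pik3ip1, for Pik3ip1 and Sesn1, and for Cdkn1b and Tob1. The plates of Sesn3 lay below those of every other member in both pools.

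**Figure D1:**
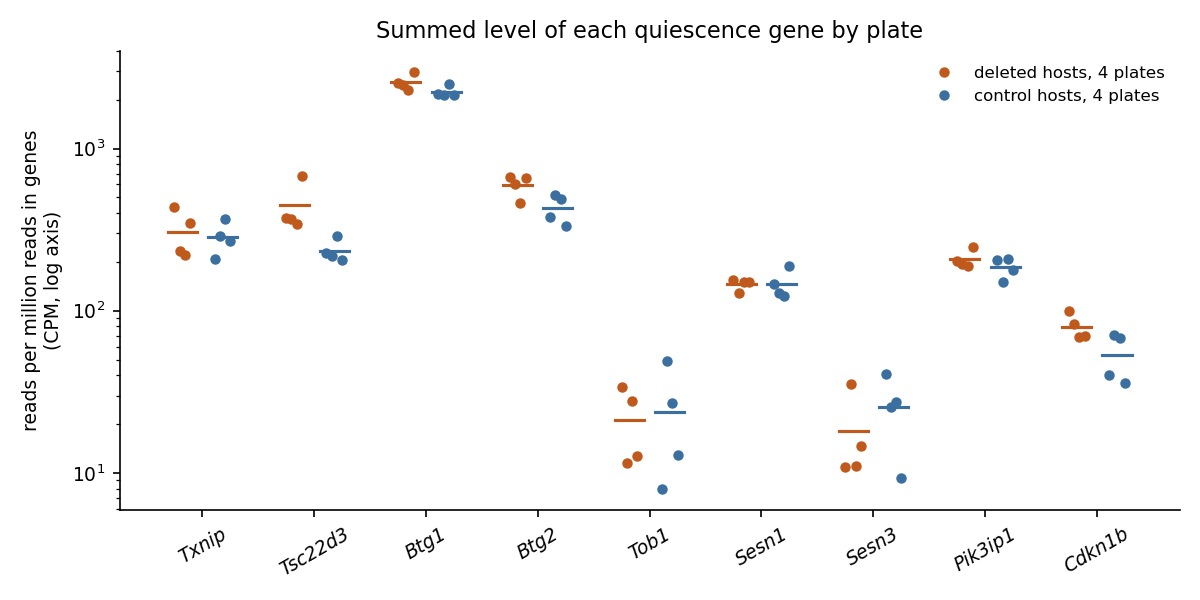
Summed reads of each quiescence gene per 1000000 reads in genes (CPM, log axis), with 1 point per plate and a line at the pool value, for deleted hosts (orange, left) and control hosts (blue, right). The 4 deleted-host plates of Tsc22d3 lie at 342 to 681 CPM, above the 205 to 289 CPM of the control-host plates, and the plates of the other 8 genes overlap.

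None of the 9 genes differed by 2-fold or more between pools (log2 ratio of CPM + 1 of at least 1 in size). Among the 7207 genes that reached 20 CPM in at least 1 pool, which include all 9, 2.75% were higher and 3.16% lower by that rule. Only Tsc22d3 had every plate of one pool above every plate of the other, and that held for 1.82% of the 7207 genes in the direction of deleted hosts and 2.86% in the direction of control hosts. The median log2 ratio of the 9 genes was 0.17, with 6 above 0 and 3 below, beside -0.04 over the 7207 genes, of which 3273 were above 0 and 3934 below.

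Txnip, the thioredoxin-interacting protein, is an arrestin-fold brake on glucose transporters whose transcription follows the glucose sensor MondoA and its partner MLX. It lies at chr3:96557957-96561883 (GRCm38, plus strand), and the 250 bases before its RefSeq start (chr3:96557707-96557956, GRCm38.p6, plus strand) are shown because they hold both a FOXO motif and the paired motif of glucose sensing. The promoters of 3 members are printed 5′ to 3′ in this way, for Txnip, Btg1 and Btg2, with capitals for the motifs found. They were searched on both strands for TGTTTAC, a FOXO motif, CACGAG, the repeated unit of the carbohydrate response element, and TGACGTCA, the cyclic AMP response element.
Txnip: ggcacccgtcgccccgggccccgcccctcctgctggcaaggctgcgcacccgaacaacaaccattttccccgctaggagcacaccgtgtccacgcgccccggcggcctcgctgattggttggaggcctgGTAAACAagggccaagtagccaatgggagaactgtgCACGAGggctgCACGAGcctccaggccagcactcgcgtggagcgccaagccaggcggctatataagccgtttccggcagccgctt
Btg1: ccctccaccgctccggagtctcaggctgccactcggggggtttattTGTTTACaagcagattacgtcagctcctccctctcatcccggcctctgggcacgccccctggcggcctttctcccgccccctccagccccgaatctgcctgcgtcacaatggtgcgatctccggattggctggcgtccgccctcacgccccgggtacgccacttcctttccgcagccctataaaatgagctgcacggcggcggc
Btg2: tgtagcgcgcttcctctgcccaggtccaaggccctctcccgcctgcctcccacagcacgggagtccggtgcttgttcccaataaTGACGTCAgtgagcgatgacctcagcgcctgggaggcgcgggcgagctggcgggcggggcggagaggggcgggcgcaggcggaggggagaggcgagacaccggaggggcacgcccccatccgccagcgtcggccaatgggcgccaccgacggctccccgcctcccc
In the Txnip promoter the FOXO motif stands on the minus strand, 121 to 115 bases before the start, and 2 copies of CACGAG stand at 85 to 80 and 74 to 69 bases, with 5 bases between them. The FOXO motif occurs in 3.16% of 32817 promoter windows of that length and 2 or more copies of CACGAG in 0.259%. Btg1 (window chr10:96616751-96617000, plus strand) has TGTTTAC at 204 to 198 bases before its start. Btg2 (window chr1:134079156-134079405, minus strand) has TGACGTCA at 166 to 159 bases, a motif found in 1.55% of windows. None of these letters stood in the windows of the other 6 genes, and a match describes the sequence and not a bound site.

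The plates of deleted hosts had 439, 234, 220.2 and 345 CPM of Txnip, and those of control hosts 208, 290.1, 369.5 and 268 CPM. High and low plates occurred in both pools and the ranges overlapped, and the pool values were 307 CPM in deleted hosts and 283 CPM in control hosts (log2 ratio 0.12). In contrast to this near-equal sum, 24.7% of deleted-host cells (95% interval 20.4 to 29.5) and 30.4% of control-host cells (25.8 to 35.4) were positive at 10 CPM or more, with overlapping intervals. Positive cells held a median of 1209 CPM in deleted hosts and 920 CPM in control hosts. Txnip counts were close to on or off in single cells, a pattern not particular to this gene. Only 2 deleted-host and 6 control-host cells lay between 10 and 50 CPM, against 89 and 106 cells at 50 CPM or more. Tsc22d3 had 10 and 5 cells against 141 and 101, Pik3ip1 8 and 7 against 85 and 86, and Sesn1 9 and 9 against 56 and 61. Reads of the opposite-strand gene Gm15441, which overlaps Txnip, came to 1.79 CPM in deleted hosts and 1.85 CPM in control hosts.

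Tsc22d3 encodes GILZ, a leucine zipper protein induced by glucocorticoids and by FOXO factors that restrains AP-1 and NF-kappaB (chrX:140539528-140600659, minus strand). Its plates held 372, 368, 342 and 681 CPM in deleted hosts, against 228, 219, 289 and 205 CPM in control hosts. All deleted-host plates stood above all control-host plates, and deleted plate 4 stood well above the other 3. Over the pools there were 446 CPM (95% Poisson interval 444 to 447) in deleted hosts and 235 CPM (234 to 236) in control hosts, a log2 ratio of 0.92 and a 1.89-fold difference. Without deleted plate 4 the log2 ratio was 0.61. These intervals, like those of shares, cover counting error only, since PCR copies are not independent molecules and animals within a pool cannot be separated.

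More deleted-host cells were positive for Tsc22d3, 151 of 368 or 41.0% (95% Clopper-Pearson interval 36.0 to 46.2), against 106 of 368 or 28.8% (24.2 to 33.7) in control hosts. By plate the share was 34.8, 42.4, 33.7 and 53.3% in deleted hosts and 27.2, 27.2, 29.3 and 31.5% in control hosts, again without overlap. The level in positive cells was also higher, with a median of 984 CPM in deleted hosts and 724 CPM in control hosts. When each cell was thinned to 200000 reads the shares were 44.9% in deleted hosts and 34.0% in control hosts. The plates then overlapped, since control plate 4 had 38.0%, above the 37.8% of deleted plate 1 and the 35.9% of deleted plate 3. How many of all genes have shares without plate overlap is not given here. The sum of immediate early and heat shock genes was higher in the same pool, with Egr1 lower, as given above, and their part in the Tsc22d3 values was not tested.

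**Figure D2:**
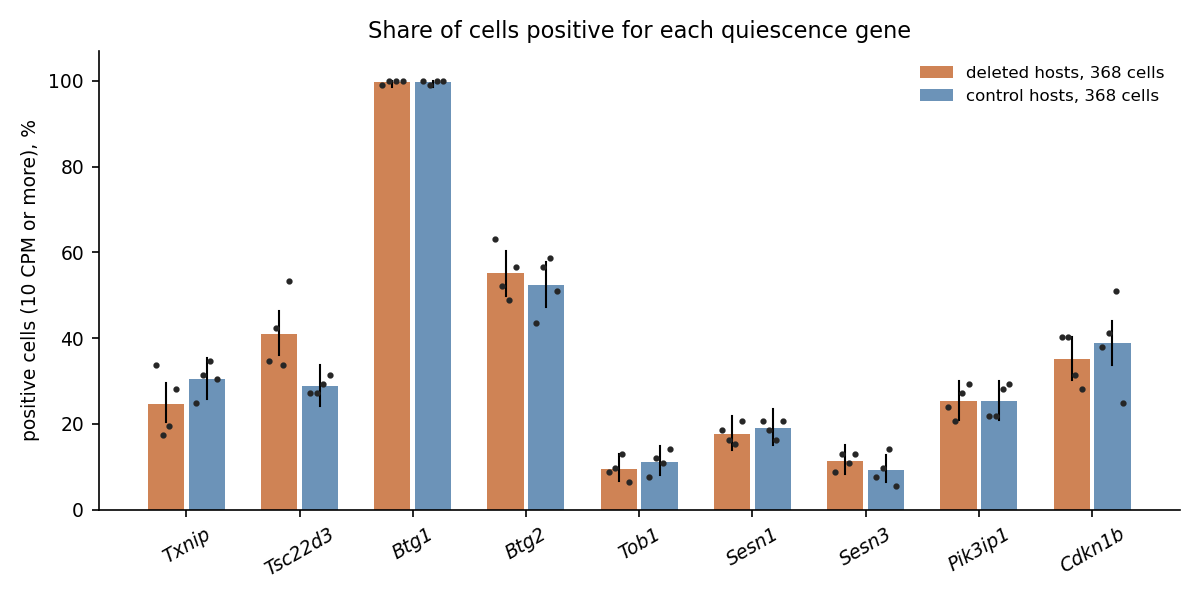
Share of cells with 10 CPM or more of each quiescence gene, as bars per pool (deleted hosts left, control hosts right) with exact 95% intervals as lines and the 4 plates as dots. The intervals separate for Tsc22d3, at 41.0% in deleted hosts and 28.8% in control hosts, and overlap for the other 8 genes.

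The reading of such shares depends on how much RNA reaches a well from outside its cell. Lyz2, a myeloid gene that T cells lack, reached 10 CPM in 77.4% of deleted-host cells and 60.6% of control-host cells, but 50 CPM in only 1.36% and 0.272%. At the median depth 10 CPM equals 15.3 reads, and the 9 wells without a cell held at most 4 reads of Txnip or Tsc22d3, 21 of Btg1, 9 of Btg2, 6 of Sesn1, 3 of Pik3ip1, 2 of Cdkn1b, 1 of Tob1 and 0 of Sesn3. A rule of 50 CPM gave Tsc22d3 shares of 38.3% in deleted hosts and 27.4% in control hosts. For Cdkn1b, by contrast, 64 deleted-host and 94 control-host cells lay between 10 and 50 CPM, so the share of that gene turns on where the threshold is set.

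Btg1, Btg2 and Tob1 belong to the family of antiproliferative proteins that recruit the CCR4-NOT deadenylase to mRNA, and Btg1 and Btg2 have been described as keepers of T cell quiescence in mice. Btg1 (chr10:96617006-96622809, plus strand) was the member found in nearly every cell, with 367 of 368 cells positive in each pool. Its plates held 2551, 2459.7, 2300.1 and 2978 CPM in deleted hosts and 2165, 2142, 2512 and 2137 CPM in control hosts. Control plate 3 lay inside the deleted-host range, so the groups overlapped, and the pool values of 2577 and 2239 CPM in deleted and control hosts gave a log2 ratio of 0.20. The 10 highest cells held 8.48% of Btg1 reads in deleted hosts and 8.41% in control hosts, so the level was spread over the cells. The processed pseudogenes Btg1-ps1 and Btg1-ps2 were listed at 0 reads, and how reads shared with such copies were counted is not given in the sources used here.

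Btg2 (chr1:134075170-134079120, minus strand), which antigen receptor and stress signals can induce as an early gene, had plates at 667, 605, 464 and 662 CPM in deleted hosts, against 377, 520.3, 489 and 333 CPM in control hosts. Of the deleted-host plates 3 lay above all control-host plates, and deleted plate 3 lay below control plates 2 and 3. The pools had 599 CPM in deleted hosts and 428 CPM in control hosts (log2 ratio 0.48). The share of positive cells differed little, at 55.2% (49.9 to 60.3) in deleted hosts and 52.4% (47.2 to 57.6) in control hosts. That sum was higher in deleted hosts here too, with Egr1 lower, and its part in the Btg2 ratio was not tested.

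Tob1 (chr11:94211454-94215495, plus strand), a repressor of IL-2 transcription and proliferation in resting T cells, was scarce. Its plates held 33.9, 11.6, 27.6 and 12.7 CPM in deleted hosts and 7.98, 48.9, 26.8 and 12.9 CPM in control hosts, with no order between pools. In deleted hosts 9.51% of cells were positive and in control hosts 11.1%. A few cells set these values, since the 10 highest cells of each pool held 67.2% of the Tob1 reads in deleted hosts and 62.9% in control hosts.

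The sestrins Sesn1 and Sesn3 sense stress and, by binding the GATOR2 complex, restrain mTORC1, and FOXO factors induce Sesn3. Sesn1 (chr10:41809935-41908424, plus strand) had plates at 156, 129, 149 and 149 CPM in deleted hosts and 147, 129, 123 and 188 CPM in control hosts. The pool levels were 146 and 147 CPM in deleted and control hosts, and 17.7% and 19.0% of cells were positive. Sesn3 (chr9:14275067-14333101, plus strand) held 10.8, 35.5, 11.1 and 14.6 CPM in deleted hosts and 40.7, 25.5, 27.2 and 9.26 CPM in control hosts. Deleted plate 2 lay far from the other deleted-host plates, the control-host plates were spread widely, and the 10 highest cells carried 86.1% of Sesn3 reads in deleted hosts and 85.0% in control hosts. The Sesn3 log2 ratio of -0.48 was -1.002 without deleted plate 2, -0.76 without control plate 4 and -0.17 without control plate 1. The positive shares of 11.4% in deleted hosts and 9.24% in control hosts had overlapping intervals.

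Pik3ip1 is a transmembrane inhibitor of PI3K that T cells lose on activation (chr11:3330401-3342971, plus strand). It had 204, 195, 189 and 249 CPM on the plates of deleted hosts and 204, 151, 209 and 179 CPM on those of control hosts. Exactly 93 of 368 cells, 25.3% (20.9 to 30.04), were positive in each pool, and the pool levels were 210 CPM in deleted hosts and 186 CPM in control hosts (log2 ratio 0.17).

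Cdkn1b encodes p27, which holds cyclin-dependent kinases in check (chr6:134920401-134925513, plus strand). Its plates held 99.3, 82.4, 68.9 and 70.1 CPM in deleted hosts, against 40.4, 70.6, 68.0 and 35.8 CPM in control hosts. Control plate 2 lay just above the lower deleted-host plates, so the ranges met, and the pools had 79.6 and 53.4 CPM in deleted and control hosts (log2 ratio 0.57). The share at 10 CPM ran the other way, at 35.1% in deleted hosts and 38.9% in control hosts, while at 50 CPM it was 17.7% in deleted hosts and 13.3% in control hosts.

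Cells carried the members in loose combinations. On average 3.20 of the 9 genes were positive in a deleted-host cell and 3.15 in a control-host cell, and no cell had 0 or more than 7. Across the 36 pairs, Spearman's rho between log2 (CPM + 1) values, taken within each plate of 92 cells and averaged over 8 plates, lay between -0.04 and 0.17, with a median of 0.03. Only 3 pairs reached 0.1, and cells of a plate share depth and background, so these are weak associations and descriptions only.

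**Figure D3:**
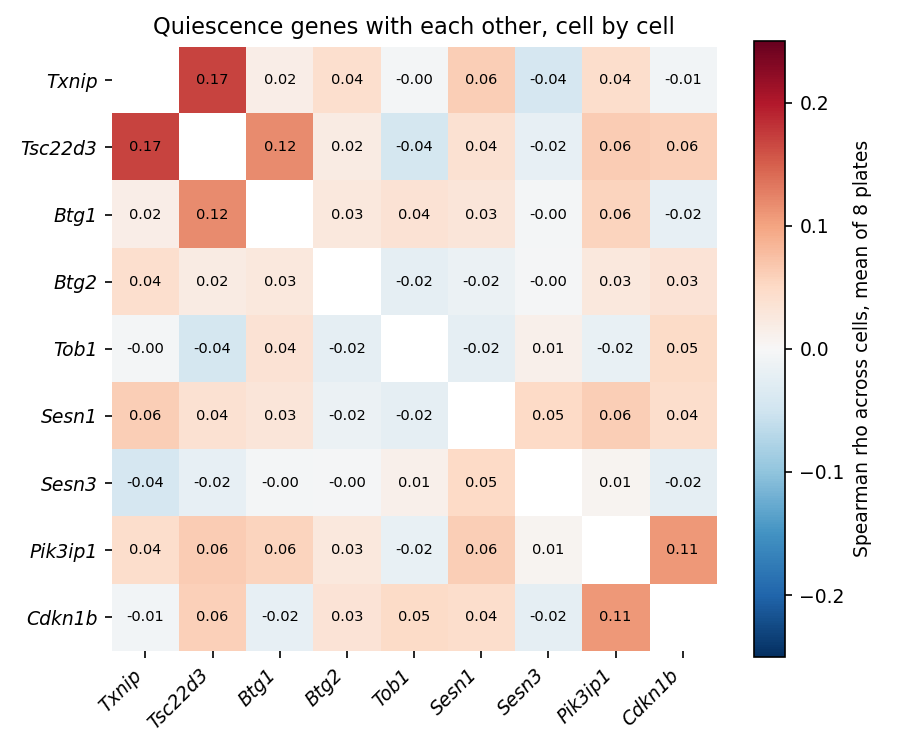
Spearman's rho across single cells between each pair of quiescence genes, computed within each of 8 plates and averaged (color scale and printed values). Txnip with Tsc22d3 is highest at 0.17, followed by Tsc22d3 with Btg1 at 0.12 and Pik3ip1 with Cdkn1b at 0.11, and the other 33 pairs are under 0.1.

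The highest pair was Txnip with Tsc22d3, at a rho of 0.17 (-0.03 to 0.34 by plate, above 0 on 7 of 8 plates) and 0.13 in thinned cells. Of the 4036 other genes with 20 CPM or more that were positive in at least 10% of cells, 0 had a higher rho with Txnip. Among Tsc22d3-positive cells, 92 of 257 or 35.8% (29.9 to 42.0) were also Txnip-positive, against 111 of 479 or 23.2% among Tsc22d3-negative cells. The same direction stood in both pools, at 31.8% of Tsc22d3-positive and 19.8% of Tsc22d3-negative cells in deleted hosts, and at 41.5% and 26.0% in control hosts. Control plate 2 was the exception, with 24.0% of its Tsc22d3-positive and 34.3% of its Tsc22d3-negative cells holding Txnip.

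By the same measure over the 8 plates, and with the members themselves left out, the genes most like Tsc22d3 included Klf2 (rho 0.23) and Klf13 (0.20), and the least like it was Nfatc1 (-0.18). Txnip was nearest to Malat1 (0.15), Rps29 (0.14) and S1pr1 (0.14), and farthest from Zmym2 (-0.15). S1pr1, the receptor that lets T cells leave lymphoid organs, also headed the lists of Btg1 (0.21) and Pik3ip1 (0.16). Btg1 was followed by Lef1 (0.14) and Klf13 (0.14), with Pkm, the glycolytic pyruvate kinase, at the low end (-0.16). Klf13 stood among the top 3 for Cdkn1b as well, at 0.12 behind Ets1 (0.13) and Tnfrsf26 (0.13), with Hsp90ab1 lowest (-0.13). The nearest genes of the remaining members were Kmt2d for Btg2 (0.13), Arrb2 for Tob1 (0.16), Igf2r for Sesn1 (0.14) and Strbp for Sesn3 (0.14). All genes named in this paragraph are extremes picked from 4036, and their rho values were not tested. Plates went through 0 for Kmt2d (-0.04 to 0.29) and for Malat1 with Txnip (-0.11 to 0.28). They stayed above 0 for Klf2 with Tsc22d3 (0.08 to 0.37) and for S1pr1 with Btg1 (0.12 to 0.30).

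Over the 13 genes of a FOXO1 and KLF2 list, chosen with earlier results known, 97 of 117 pairs with the members had a rho above 0, with a median of 0.03. The list median was 0.06 for Txnip, 0.07 for Tsc22d3 and 0.06 for Btg1, beside -0.0038, -0.0037 and -0.015 over all 4036 candidate genes, while Tob1 had 0.016 beside 0.013 and Sesn3 0.0051 beside 0.0072. Txnip and Btg1 were above 0 with 13 of the 13 genes each, Tsc22d3 and Pik3ip1 with 12, and the other members with 8 to 10. The share of all candidate genes above 0 is not given here, so these counts stand without a background. For Txnip and Btg1 the lowest rho of the 13 was with Foxo1 itself, at 0.0083 for each. Against the 9 measured effector and activation markers, the 81 pairs had a median of -0.00105 and a range of -0.11 (Tsc22d3 with Icos) to 0.10 (Tsc22d3 with Nr4a1).

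Cd44 split the cells into 105 positive and 631 negative at 10 CPM. In thinned cells, where 10 CPM rests on fewer reads, the split was made anew and gave 126 positive and 607 negative cells. Thinned differences below therefore compare other sets of cells. Of deleted-host cells 56 were Cd44-positive (15.2%, 11.7 to 19.3), against 49 of control-host cells (13.3%, 10.02 to 17.2). Cd44-positive cells had a median of 1777 genes with at least 5 reads and Cd44-negative cells 1532, and over 6792 genes with 20 CPM or more the share of positive cells was higher in Cd44-positive cells by a median of 3.50 percentage points. A member at an equal share in both therefore stands below the median gene.

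**Figure D4:**
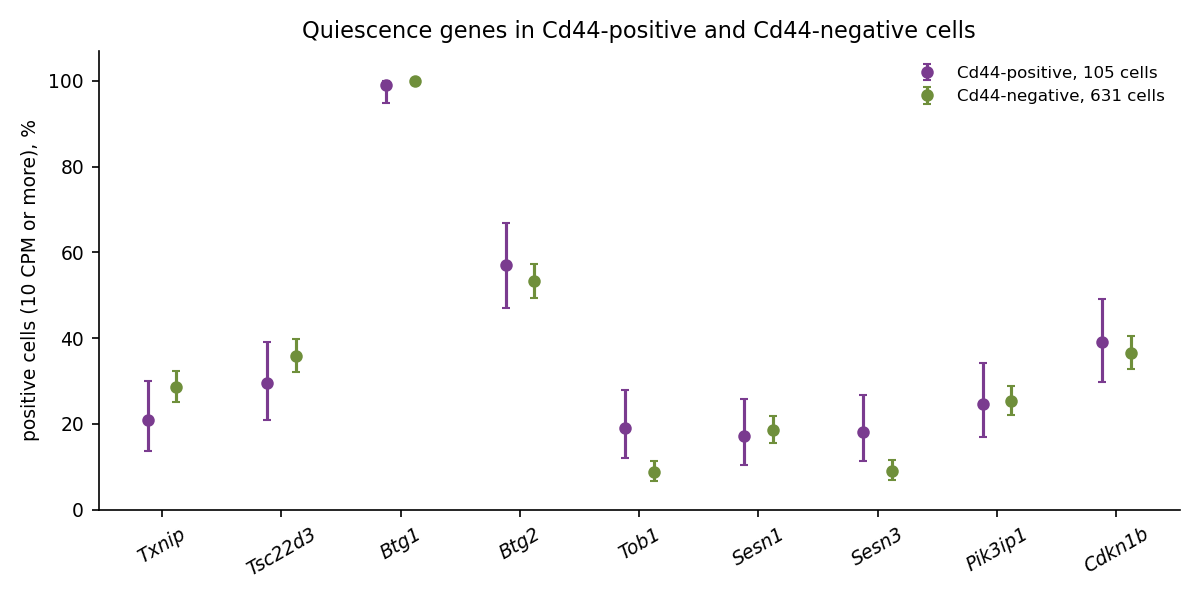
Share of cells with 10 CPM or more of each quiescence gene among 105 Cd44-positive cells (purple, left) and 631 Cd44-negative cells (green, right) of both pools, with exact 95% intervals. Txnip is at 21.0% and 28.7%, Tsc22d3 at 29.5% and 35.8%, and Tob1 at 19.0% and 8.87%, in Cd44-positive and Cd44-negative cells, and only the intervals of Tob1 do not overlap.

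Quiescence genes and Cd44 were found in the same cells, with a mean of 3.25 members in a Cd44-positive cell and 3.16 in a Cd44-negative cell. Txnip was positive in 22 of 105 Cd44-positive cells, 21.0% (13.6 to 29.99), and in 181 of 631 Cd44-negative cells, 28.7% (25.2 to 32.4). That difference was -7.73 points, with overlapping intervals. The list was chosen with this overlap in view, so a rank of Txnip among other genes would be no support. The Txnip share was lower in Cd44-positive cells on 6 of 8 plates, and the difference was -8.51 points in thinned cells. Tsc22d3 was positive in 29.5% (21.0 to 39.2) of Cd44-positive and 35.8% (32.1 to 39.7) of Cd44-negative cells, a difference of -6.29 points. In thinned cells the difference was -2.57 points. There 47 of 126 Cd44-positive cells held Tsc22d3, against 31 of 105 before thinning, so depth and the change of cells cannot be told apart. In deleted hosts the Tsc22d3 shares were 33.9% in Cd44-positive and 42.3% in Cd44-negative cells, and in control hosts 24.5% and 29.5%.

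Tob1 and Sesn3 ran the other way. Tob1 was found in 19.0% (12.04 to 27.9) of Cd44-positive and 8.87% (6.77 to 11.4) of Cd44-negative cells. At +10.2 points it was the member past 10 points upward, as were 12.7% of the 6792 genes, and 0 members were past 10 points downward, as were 0.177% of genes. The Tob1 gap was +5.69 points in thinned cells, +6.64 with Cd44 called at 50 CPM, and +7.998 and +7.73 without control plates 1 and 2, each under 10 points. It was wider in control hosts, with 26.5% of Cd44-positive and 8.78% of Cd44-negative cells, than in deleted hosts, with 12.5% and 8.97%, a difference that was not tested. Sesn3 was found in 18.1% of Cd44-positive and 9.03% of Cd44-negative cells, and the gap came from deleted hosts, with 28.6% of Cd44-positive and 8.33% of Cd44-negative cells, while control hosts had 6.12% and 9.72%. Of the 16 deleted-host cells positive for both Cd44 and Sesn3, deleted plates 2 and 4 held 6 each. Of the 42 Sesn3-positive deleted-host cells 28 lay between 10 and 50 CPM, near the threshold. On deleted plate 4 the summed Sesn3 level was lower in Cd44-positive cells, at 7.52 CPM, than in Cd44-negative cells, at 15.9 CPM, and without deleted plate 2 the gap over all cells was 4.56 points.

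The shares of the other 5 members lay closer together before thinning. Btg1 was positive in 99.0% of Cd44-positive and 99.8% of Cd44-negative cells, Btg2 in 57.1% and 53.2%, Sesn1 in 17.1% and 18.5%, Pik3ip1 in 24.8% and 25.4%, and Cdkn1b in 39.0% and 36.6%, with intervals that overlapped for each. In thinned cells Pik3ip1 was at 22.2% in Cd44-positive and 27.5% in Cd44-negative cells, a gap of -5.29 points, and Sesn1 changed sign to +1.36 points. By summed level Pik3ip1 had 137 CPM in Cd44-positive and 208 CPM in Cd44-negative cells, Sesn1 had 96.9 and 155 CPM, and Txnip 182 and 314 CPM. Split by pool, the Sesn1 sums were 47.1 and 164 CPM in deleted hosts and 150.2 and 147 CPM in control hosts. Few cells set them, since 8 of 56 Cd44-positive cells in deleted hosts and 10 of 49 in control hosts were Sesn1-positive. Control-host plates went both ways, with 0.673 and 172 CPM on control plate 1 and 379 and 103 CPM on control plate 2. The difference between pools was not tested. Btg1, at 2053 CPM in Cd44-positive and 2463 CPM in Cd44-negative cells, was lower in the deleted hosts (1855 and 2710 CPM) and not in the control hosts (2265 and 2235 CPM). Plates departed from this in both pools, with 2970 and 2980 CPM on deleted plate 4 and 1488 and 2210 CPM on control plate 2. That difference between pools was not tested either.

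The partners of the members in their pathways were counted from lists drawn up with earlier results of these data known. Of the 13 FOXO1 and KLF2 genes 0 were 2-fold different, the median log2 ratio was 0.16, and 1 had no plate overlap: Klf13, singled out after its values were seen, at 878 CPM in deleted hosts and 1047 CPM in control hosts. Of 8 measured genes around MondoA, which drives Txnip, Txnrd1 was higher (84.3 CPM in deleted hosts, 40.4 CPM in control hosts). The arrestin-fold gene Arrdc2 was lower (10.003 CPM in deleted hosts, 37.9 CPM in control hosts). The list median was -0.14, and plates overlapped for each of these genes. Few cells set the values, with 7 deleted-host and 15 control-host cells positive for Arrdc2, and 38 and 21 for Txnrd1.

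Of 6 measured genes in a glucocorticoid list, set beside Tsc22d3, 0 were 2-fold different (median 0.18). The list is not of induced genes alone, since it holds the receptor gene Nr3c1 and Tsc22d4, a relative of Tsc22d3. Dusp1, a phosphatase that is also an immediate early gene, was higher on every deleted-host plate, at 1228 CPM in deleted hosts and 656 CPM in control hosts. Per1 had 56.3 and 33.1 CPM, Sgk1 108 and 91.8 CPM and Nr3c1 104 and 95.2 CPM in deleted and control hosts. Lower in deleted hosts were Tsc22d4, at 121 and 173 CPM, and Fkbp5, which binds the glucocorticoid receptor, at 77.1 and 90.2 CPM. Apart from Dusp1, the plates of each of these genes overlapped. Among 12 measured BTG, TOB and CCR4-NOT genes 0 were 2-fold different (median 0.13), and the deadenylase Cnot8 alone had no plate overlap, at 202 CPM in deleted hosts and 123 CPM in control hosts.

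No gene of the 11 measured in the sestrin and mTORC1 list (median -0.15), the 10 in the PI3K list (0.05) or the 11 in the cell cycle list (-0.13) was 2-fold different or free of plate overlap. The largest ratios there were Tsc1, an mTORC1 inhibitor, at 33.7 and 62.4 CPM, Inpp5d, a lipid phosphatase, at 94.8 and 158 CPM, and Cdk6 at 41.0 and 77.0 CPM in deleted and control hosts. Of the 9 measured effector markers 0 were 2-fold different (median 0.38) and Cd69, an early activation receptor, had no plate overlap, at 588 CPM in deleted hosts and 303 CPM in control hosts.

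**Figure D5:**
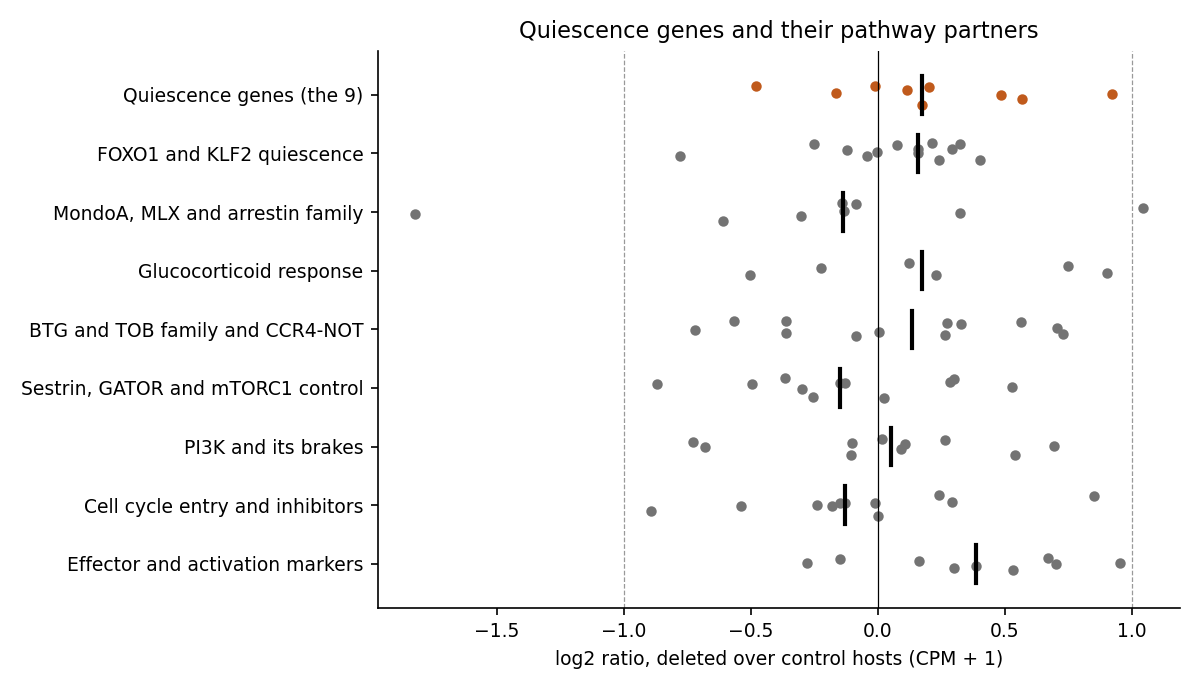
Log2 ratio of CPM + 1, deleted over control hosts, for the 9 quiescence genes (orange) and for the measured genes of 8 partner lists (grey), with a black bar at each median and dashed lines at 2-fold. The quiescence genes run from -0.48 (Sesn3) to 0.92 (Tsc22d3) around a median of 0.17, and no list median passes 0.38.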

How the data were processed

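For each of 8 plates the authors deposited raw counts of reads, a row per gene and a column per well. Per the submitters' processing notes, featureCounts 2.0.1 and the build mm10 were used. The aligner, annotation, strand setting and handling of multiply mapped reads are not stated in the labels or notes, so a gene and an overlapping antisense gene cannot be told apart. Libraries were made, per the labels' protocols, by oligo(dT) priming, template switching, 25 cycles of PCR and Tn5 tagmentation, and no molecular identifiers are named.

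From the counts, reads were summed over the 92 cell wells of each plate and over each pool and scaled to reads per 1000000 reads in genes (CPM), and the 32 control wells stayed out. No cell well was removed, including a well of deleted plate 4 with 9905 reads. The median depth was 1499762 reads per deleted-host cell and 1592794 per control-host cell. The log2 ratio used a pseudocount of 1 CPM, which understates folds of low genes, and the background was the genes with 20 CPM or more. A cell was positive at 10 CPM, Poisson intervals were used for levels and Clopper-Pearson intervals for shares, all at 95%. Thinning drew 200000 reads per cell and left out 3 deleted-host cells and 0 control-host cells. TMM factors came from edgeR 4.0.16 (R 4.3.3), and the rest from Python 3.11.15 with scipy 1.17.1. The scripts' calls were tested on simulated data. Promoter windows are from RefSeq, and 9 of 9 members matched (3 windows for Tsc22d3, 2 for Sesn1). Gene coordinates and exon lengths are from GENCODE on GRCm38.

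The members and gene lists were chosen with earlier results of these data known. Named genes were all 9 members, for each the 3 genes with the highest and the 1 with the lowest mean rho among genes positive in 10% or more of cells, and up to 4 per partner list with the largest ratio at 20 CPM or more. For the glucocorticoid list all measured genes are named. Not all of these are reported here. No test between groups was made, since each group is 1 sample, and alternatives are given in the closing section.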

Additional observations from a re-analysis of the deposited data

Results flagged for a closer look

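Each set of 4 plates was searched for a plate far from the other 3, by Dixon's criterion at its 95% limit, over 18 sets (9 genes in 2 pools). Chance flags about 1 set in 20, and the plates are technical splits of a pool. Of the 18 sets, 3 stood out.

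Tsc22d3 on deleted plate 4 had 681 CPM, while the other deleted-host plates had 342 to 372 CPM. Of its cells 53.3% were positive, against 33.7 to 42.4% on the other deleted-host plates. Btg1 on control plate 3 had 2512 CPM, with 2137 to 2165 CPM on the other control-host plates. Sesn3 on deleted plate 2 had 35.5 CPM, with 10.8 to 14.6 CPM on the other deleted-host plates, and 10 cells held 86.1% of the Sesn3 reads of that pool.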

How the results depend on the processing

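Each value was recomputed under other scalings, pseudocounts, thresholds and depths, and with each plate left out in turn. The Tsc22d3 log2 ratio of 0.92 was 0.94 with a total lacking mitochondrial genes and the 20 most abundant genes, 0.84 as a mean of per-cell CPM, 0.90 without the highest cell and 0.89 with a pseudocount of 10 CPM, and it ran between 0.61 (without deleted plate 4) and 1.03 (without control plate 3) as plates were left out. Its plates did not overlap under the other scalings or without the highest cell. Leaving out a plate or changing the pseudocount cannot bring overlap, so those settings say nothing about it. With a plate left out, the members at 2-fold or more numbered 0 to 1 (Tsc22d3 without control plate 3 or deleted plate 3, Sesn3 without deleted plate 2). Those without plate overlap then numbered 1 to 2, with Cdkn1b added without control plate 2, Btg1 without control plate 3 and Btg2 without deleted plate 3. Of all genes with 20 CPM or more, 4.68% had no plate overlap with every plate kept, and 7.6 to 8.1% with a plate left out. For 2-fold or more the shares were 5.91% and 6.8 to 7.8%. The Tsc22d3 share difference of 12.2 points lay between 8.15 and 16.03 points. The log2 ratio changed sign under some setting for Txnip (-0.08 to 0.27), Sesn1 (-0.09 to 0.13) and Tob1 (-0.45 to 0.39), and kept it for the other 6 genes.

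Of the 9 members 5 were less often positive in Cd44-positive cells. With Cd44 called at 1 CPM there were 2, and with a plate left out 3 to 5, the fewest without deleted plate 3. With Cd44 at 1 CPM, where most cells count as Cd44-positive, the Txnip and Tsc22d3 differences were above 0. The cause was not tested. TMM scaling moved ratios by 0.01. No paired analysis was possible because each group is 1 pooled sample. At 368 cells per pool, the share differences of the other 8 members lie within the counting intervals.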
